A study of Mus musculus with 4 samples.

Results

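The MAP kinase cascade genes reported here are 42 protein-coding mouse genes whose symbol is Mapk, Map2k, Map3k or Map4k followed by a number, out of 21631 protein-coding genes on the chromosomes that the data cover. They were chosen by symbol alone, and genes of binding partners such as Mapk8ip1 and of downstream kinases such as Mapkapk2 do not belong to them. Binding of DNMT3B, a de novo DNA methyltransferase, was mapped in them by chromatin immunoprecipitation and sequencing (ChIP-seq) in lung metastases of 4T1, a mouse mammary tumour cell line, in BALB/c mice. The series has 2 DNMT3B ChIP libraries and 2 input libraries made without antibody, and each kind carries the lung labels 3 and 5. No genetic change, treatment, age or sex of the animals is given in the sources used here, nor whether the lungs came from separate mice or whether tumour cells were separated from lung tissue. The values are positions in a list of 1704 distinct narrow regions from the caller MACS and one of 8242 broad islands from the caller SICER, each for the series as a whole. No read count or score comes with them, so the depth is unknown, no spread between libraries can be given and no difference was tested. More cells carrying the protein and more protein per cell cannot be told apart in such lists. The lists hold no expression values, so the tissue label could not be checked against marker genes.

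A MAP kinase cascade passes a signal through kinases that phosphorylate each other in turn. MAP4K enzymes act on MAP3K enzymes, these on MAP2K enzymes (also called MEK or MKK), and these on the MAP kinases themselves, which comprise ERK, JNK, p38 and ERK5 enzymes and some atypical members. ERK enzymes mainly carry growth factor signals, while JNK and p38 enzymes respond mainly to stress and cytokines, and the cascades are studied in breast cancer for growth, survival and spread of tumour cells.

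SICER islands were paired with 18 of the 42 genes (42.9%, exact 95% Clopper-Pearson interval 27.7 to 59.0), while 17.4% of all protein-coding genes had one. MACS regions named 3 of the 42 genes (7.14%, 1.5 to 19.5), while 6.21% of all protein-coding genes were named. The MACS share lies near that of all genes and is no result about this family. Both lists named Map2k7 and Map3k3, 2 of the 42 (4.76%) beside 2.49% of all genes. In all, 19 genes (45.2%) appeared in at least 1 list and 23 in neither. Of all 21631 protein-coding genes, 1344 were named by MACS regions, 3771 were paired with islands and 538 were in both lists. The intervals cover counting error only, with genes as the units, although neighbours such as Mapk11 and Mapk12 are not independent.

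By tier, islands were paired with 2 of 5 MAP4K genes (40.0%), 6 of 18 MAP3K genes (33.3%), 4 of 7 MAP2K genes (57.1%) and 6 of 12 MAPK genes (50%). The genes named by MACS regions were 2 MAP3K genes, Map3k3 and Map3k8, and 1 MAP2K gene, Map2k7. The intervals of the tiers overlap widely, from 5.27 to 85.3% for islands at MAP4K genes and from 18.4 to 90.1% at MAP2K genes. The 38 islands of the family covered 226.4 kb, of which 103.2 kb belonged to MAP3K genes, 61.0 kb to MAP2K genes, 40.0 kb to MAPK genes and 22.2 kb to MAP4K genes. Of the 18 genes, 11 had a single island, and 7 of the 42 (16.7%) had at least 2, beside 8.27% of all protein-coding genes. With the island midpoint required in the gene or up to 5 kb upstream, 13 genes (31.0%) had one, beside 13.4%.

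**Figure D1:**
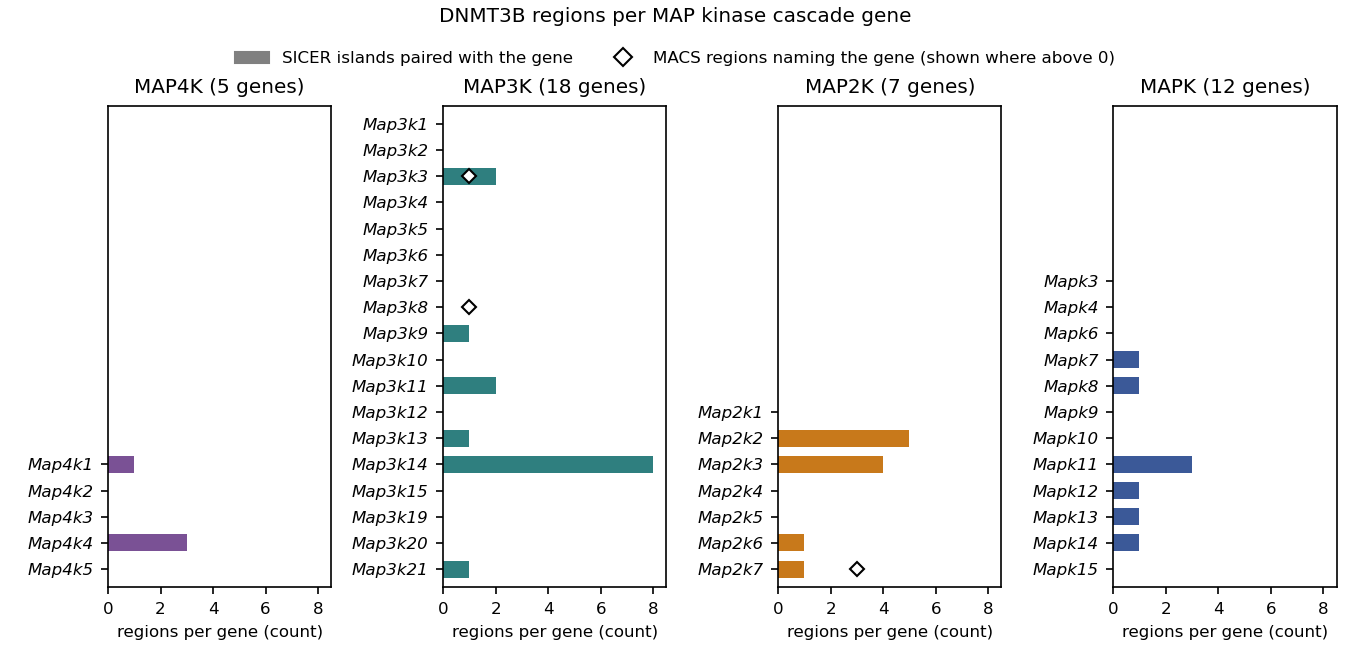
Number of SICER islands (bars) and MACS regions (open diamonds, drawn where above 0) for each of the 42 genes, in 1 panel per tier, with the count of regions per gene on the horizontal axis. Map3k14 stands highest with 8 islands, followed by Map2k2 with 5 and Map2k3 with 4, and Map2k7 has most MACS regions, with 3.

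Windows at 6 gene starts that carry a region or lie near one are shown as sequence, since cytosine followed by guanine (CG) is the main site that DNMT3B methylates. The windows run from 250 bases before to 50 after the gene start of the RefSeq table, build GRCm38.p6, 5′ to 3′ along the gene, with every CG in capitals. Map2k7 (chr8:4238490-4238789, plus strand) and Map3k3 (chr11:106084337-106084636, plus strand) have MACS regions near the start, that of Map3k3 at a position rounded to 1000 bp. Map3k8, with a MACS region 8 bp upstream, is not shown.
Map2k7: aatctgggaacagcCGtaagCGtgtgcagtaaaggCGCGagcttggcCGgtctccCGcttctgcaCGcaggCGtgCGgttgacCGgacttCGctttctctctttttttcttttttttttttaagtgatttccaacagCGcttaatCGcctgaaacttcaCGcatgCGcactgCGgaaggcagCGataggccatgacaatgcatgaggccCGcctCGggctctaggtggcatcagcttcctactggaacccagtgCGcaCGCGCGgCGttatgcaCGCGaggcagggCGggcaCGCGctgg
Map3k3: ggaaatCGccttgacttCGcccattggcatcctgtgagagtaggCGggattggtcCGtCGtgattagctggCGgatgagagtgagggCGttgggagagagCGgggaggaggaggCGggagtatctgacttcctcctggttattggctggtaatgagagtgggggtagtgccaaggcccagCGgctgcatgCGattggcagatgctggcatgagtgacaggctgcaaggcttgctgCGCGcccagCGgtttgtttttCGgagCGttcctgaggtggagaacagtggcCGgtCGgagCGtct
Islands span 6 starts, of which those of Map2k2 and Mapk13 are not shown. The others are Map3k11 (chr19:5688881-5689180, plus strand), Map3k14 (chr11:103267352-103267651, minus strand), Map2k3 (chr11:60931804-60932103, plus strand) and Mapk7 (chr11:61494217-61494516, minus strand).
Map3k11: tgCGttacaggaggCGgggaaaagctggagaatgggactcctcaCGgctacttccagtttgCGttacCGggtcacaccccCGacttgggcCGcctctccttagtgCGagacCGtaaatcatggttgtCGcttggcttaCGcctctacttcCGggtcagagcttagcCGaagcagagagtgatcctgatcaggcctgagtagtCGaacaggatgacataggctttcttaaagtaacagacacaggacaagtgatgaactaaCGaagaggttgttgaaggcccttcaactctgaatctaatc
Map3k14: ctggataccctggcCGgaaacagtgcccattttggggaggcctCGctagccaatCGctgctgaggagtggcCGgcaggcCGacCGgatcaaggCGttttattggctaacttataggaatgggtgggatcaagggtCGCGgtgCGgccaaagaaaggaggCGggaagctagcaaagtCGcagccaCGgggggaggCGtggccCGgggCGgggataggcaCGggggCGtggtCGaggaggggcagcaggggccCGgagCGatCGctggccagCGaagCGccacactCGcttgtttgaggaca
Map2k3: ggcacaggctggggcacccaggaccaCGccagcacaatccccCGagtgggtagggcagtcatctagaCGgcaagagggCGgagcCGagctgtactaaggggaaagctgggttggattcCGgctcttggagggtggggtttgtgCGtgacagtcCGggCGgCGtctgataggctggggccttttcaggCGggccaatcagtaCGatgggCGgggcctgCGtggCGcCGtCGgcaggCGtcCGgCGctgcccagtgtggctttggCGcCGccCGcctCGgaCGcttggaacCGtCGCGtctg
Mapk7: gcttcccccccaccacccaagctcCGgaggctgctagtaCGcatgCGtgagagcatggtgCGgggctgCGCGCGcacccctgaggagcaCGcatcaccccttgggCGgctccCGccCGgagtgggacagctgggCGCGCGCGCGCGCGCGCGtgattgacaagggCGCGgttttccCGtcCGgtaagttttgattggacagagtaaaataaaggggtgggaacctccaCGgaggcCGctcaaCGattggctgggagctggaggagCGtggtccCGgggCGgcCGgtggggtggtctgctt

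These coordinates belong to GRCm38.p6 and not to the region lists, whose build is not known. The Mapk7 window holds 31 CG sites, among them an unbroken run of CG pairs, and 13.7% of 17274 protein-coding promoters of the table hold at least as many. Map2k7 has 29 (16.9% of promoters hold at least as many), Map2k3 28 (18.6%), Map3k14 25 (24.8%), Map3k3 19 (38.7%) and Map3k11 15 (47.9%). The GC-box letters GGGCGG, searched on both strands, occur in 4 places in the Map2k3 window, 3 in that of Mapk7, and 1 each in those of Map2k7 and Map3k14, and not in those of Map3k3 and Map3k11. They stand in 46.9% of all promoters of the table, and each match contains a CG. The ETS-like letters CCGGAAG occur once, in Map3k11, and in 12.1% of all promoters, and a match also contains a CG. The AP-1-like letters TGANTCA (7.09% of all promoters), the CRE letters TGACGTCA (2.36%) and the E-box letters CACGTG (8.01%) are in none of the 6 windows. Promoters of 34 of the 42 genes (81.0%) are in the table, with a median of 26.5 CG sites and a range from 0 to 55. The median of all promoters was 14. The table holds 17 of the 18 genes with an island, median 25 CG sites, and 17 of the 24 without one, median 31. Most promoters missing from it are of genes without an island, and the difference was not tested.

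At the top of the cascade, islands were paired with Map4k4 and Map4k1, and Map4k2, Map4k3 and Map4k5 had neither kind of region. Map4k4, also called HGK, activates JNK signalling and takes part in cell migration. Its 3 islands lay on chromosome 1 from 40055600 to 40060799, from 40061800 to 40069999 and from 40079200 to 40081999. All 3 fell in the last part of the gene, which is listed from 39957757 to 40083155, and the nearest began 97843 bp from its start. Map4k1, also called HPK1, is a kinase of blood cells that restrains T cell receptor signalling. Its island, on chromosome 7 from 29753800 to 29759799, ended 8073 bp upstream of the gene and did not touch it.

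Among MAP3K genes, Map3k14 carried islands along nearly its whole length. It encodes NIK, the kinase that starts the noncanonical NF-kB pathway. Its 8 islands on chromosome 11 ran from 103076800 to 103135199, separated by gaps of 600 to 1000 bp, and were 1600 to 13600 bp wide. The gene is listed on the minus strand from 103081077 to 103128715. Islands covered 89.5% of it, including its start and its end. Only 77 protein-coding genes (0.356%) were paired with at least 8 islands, and 8.43% of the 3771 genes paired with islands were covered to at least this extent. No MACS region lay in any of these islands.

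Of the mixed lineage kinases and their dual leucine zipper relatives, which activate JNK and other MAP kinases, 4 of 7 genes had an island. The share of all protein-coding genes was 17.4%, and this grouping was made after the values were seen. Map3k11, also called MLK3, had an island on chromosome 19 from 5678600 to 5692399 that spanned its start. At 13800 bp it was the widest of the family, and 6.07% of all islands are at least as wide. A narrower island followed inside the gene from 5695000 to 5696799. A MACS region from 5688160 to 5688310 lay in the wide island, 820 to 970 bp upstream of the listed Map3k11 start at 5689130, but the MACS list named it for Pcnxl3. A further island, paired with Ehbp1l1, overlapped the end of Map3k11 from 5700200 to 5706999. Map3k9 (MLK1) had an island inside the gene on chromosome 12 from 82818000 to 82823399, and Map3k13 (LZK) on chromosome 16 from 21903800 to 21907799. Map3k21 (MLK4) is listed under the older name BC021891 and was found by its transcript. Its island spanned the gene end on chromosome 8, from 128469800 to 128476799. Map3k10, Map3k12 and Map3k20 had no region.

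Map3k3, or MEKK3, acts upstream of several MAP kinases including ERK5, and both lists named it at opposite ends of the gene. Its MACS region, worded as intronic, stands at 105947000 on chromosome 11, a position rounded to 1000 bp, 785 bp past the listed gene start at 105946215. Its islands lay from 106008000 to 106014199 inside the gene and from 106017600 to 106029799, starting 852 bp past the gene end. The MACS region was 61.0 kb from the nearest island. Map3k8, or TPL2, which activates MEK enzymes in inflammatory signalling, had a MACS region on chromosome 18 from 4352960 to 4353200, placed 8 bp upstream by the deposited distance. Positions there are rounded to 10 bp, so the region may touch the start, and no island was paired with the gene. Map3k1, Map3k2, Map3k4, Map3k5, Map3k6, Map3k7, Map3k15 and Map3k19 had neither kind of region. All 3 ASK genes (Map3k5, Map3k6 and Map3k15), whose kinases respond to oxidative stress, are among them. In the genome as a whole, islands were paired with 17.4% and MACS regions named 6.21%, so most genes had neither. The absence at these 3 genes is thus no result about the ASK group, which was drawn after the values were seen.

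**Figure D2:**
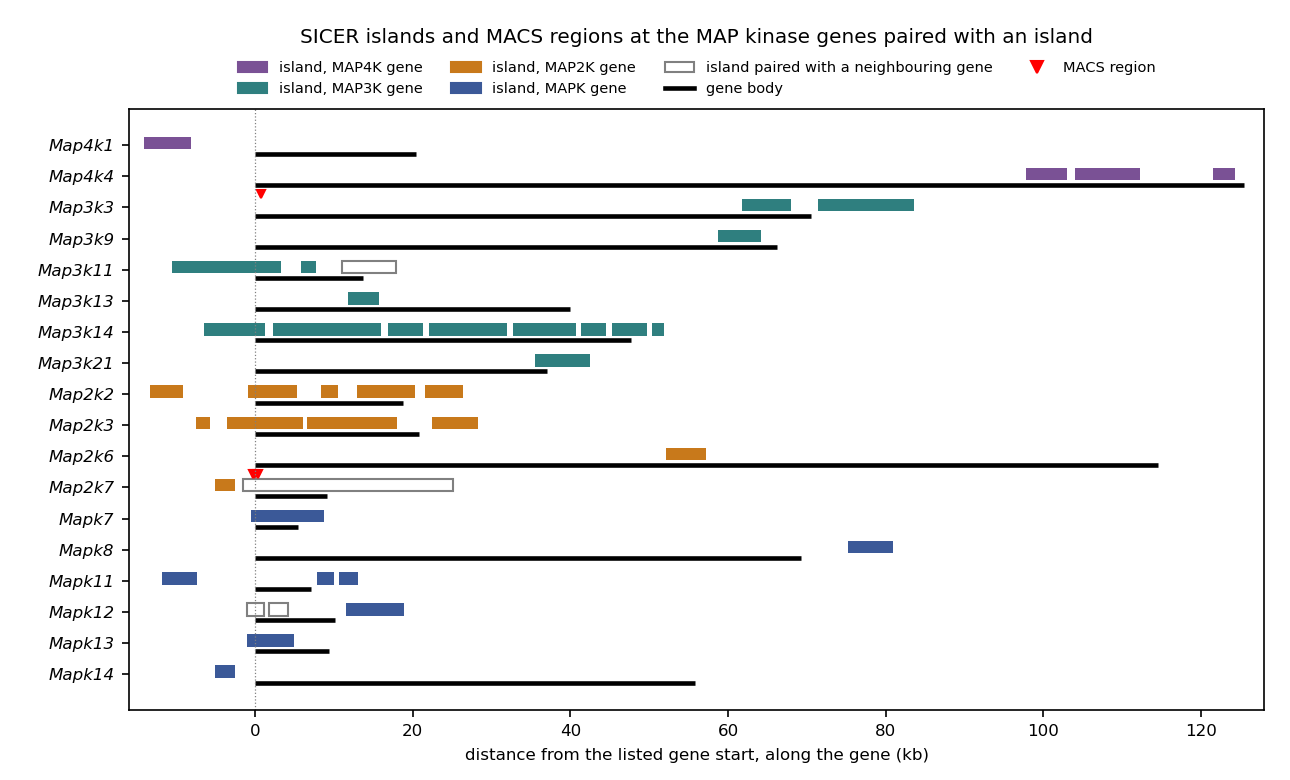
SICER islands (filled bars) at the 18 genes paired with an island, against the distance from the listed gene start in kb, read along the gene, with gene bodies as black lines and MACS regions as red triangles. Open bars are islands paired with a neighbouring gene. Islands lie along nearly all of Map3k14, over the starts of Map2k2, Map2k3, Map3k11, Mapk7 and Mapk13, and only outside the gene at Map4k1, Mapk8, Mapk11 and Mapk14.

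Among MAP2K genes, only Map2k7 was named by MACS regions, and Map2k2 and Map2k3 had the most islands. Map2k7 encodes MKK7, a kinase that activates JNK. Its 3 MACS regions lay on chromosome 8 from 4238410 to 4238470, 270 bp upstream by the deposited distance, from 4238750 to 4238980, contained within the gene, and from 4239160 to 4239260, in an intron. The gene is listed from 4238739 to 4247897 on the plus strand, so the middle region runs from 11 to 241 bp past its start and overlaps the end of the promoter window printed above, if that window has the same positions in the lists. The listed start lies 1 bp from that of GRCm38, and both gene ends are equal.

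All 3 Map2k7 regions lay in an island, although not in the island paired with the gene. The paired island, from 4233600 to 4236199, was 2600 bp wide and ended 2540 bp before the gene. An island of 26600 bp, from 4237200 to 4263799, covered all of Map2k7 and was paired with the neighbouring gene Timm44. The same island held 2 MACS regions named for Ctxn1. Thus 3 of the 5 MACS regions of the family shared at least 1 bp with an island, beside 30.6% of all 1704 regions, and these 3 came from 1 gene.

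**Figure D3:**
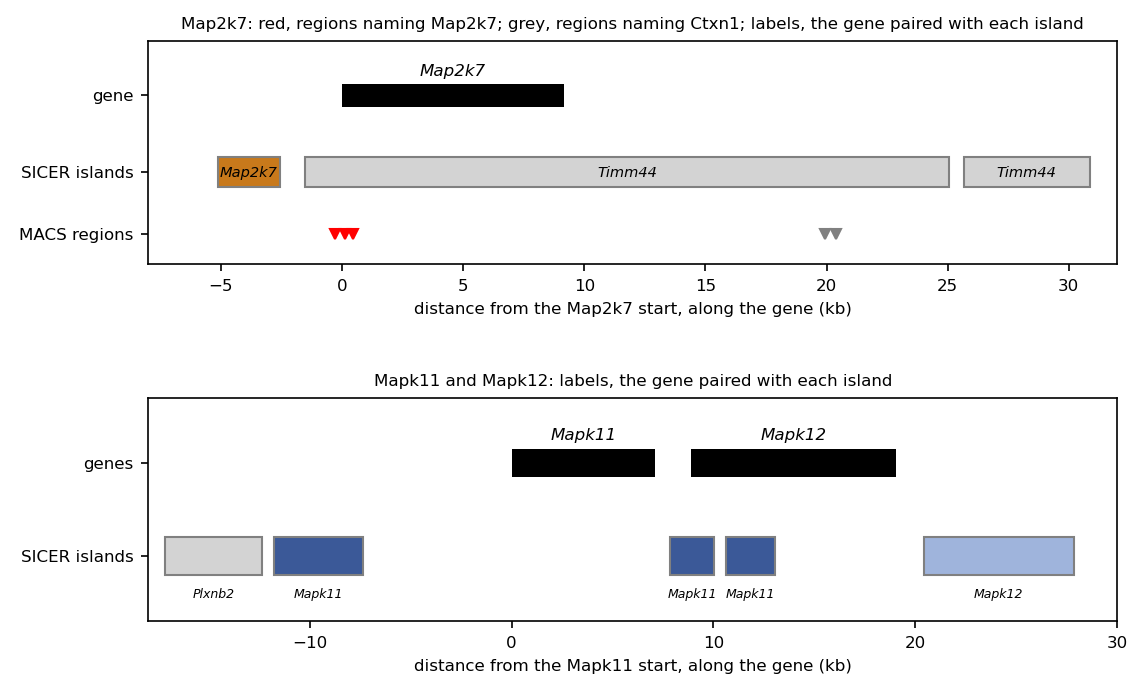
Genes, SICER islands and MACS regions (triangles) at Map2k7 (top) and at Mapk11 and Mapk12 (bottom), against the distance from the start of Map2k7 or Mapk11 in kb, read along the gene, with each island labelled by the gene it is paired with. The 3 Map2k7 regions (red) fall in the island of 26600 bp paired with Timm44, and 2 of the 3 islands paired with Mapk11 overlap Mapk12 and not Mapk11.

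Map2k2 encodes MEK2, which phosphorylates ERK enzymes. Its 5 islands on chromosome 10 lay between 80555400 and 80594999, and those over the gene start (80567800 to 80573999), inside it (80577000 to 80579199) and over its end (80581600 to 80588999) covered 71.2% of the gene. At least 5 islands were paired with 1.35% of protein-coding genes. Map2k3 encodes MKK3, an activator of p38 enzymes. Of its 4 islands on chromosome 11, that from 60742000 to 60751599 spanned the start and that from 60752200 to 60763599 lay inside, with a gap of 600 bp between them. They covered 84.1% of the gene, and 10.3% of genes with islands were covered at least as far. Map2k6 encodes MKK6, the other main p38 activator, and had 1 island of 5000 bp inside the gene from 110312600 to 110317599, over 4.37% of it. Map2k1, the gene of MEK1, had neither kind of region although its close relative Map2k2 had 5 islands. Map2k4, which activates JNK, and Map2k5, which activates ERK5, also had none.

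All 4 genes of p38 enzymes had an island, as did Map2k3 and Map2k6, beside 17.4% of all protein-coding genes. Only these 2 MAP2K genes were counted as p38 activators. Map2k4 was counted with the JNK activators and had no region, so the full count depends on how the group was drawn. The 4 p38 enzyme genes form 2 pairs of neighbours and are not independent. Mapk11 (p38 beta) and Mapk12 (p38 gamma) lie 1.78 kb apart on chromosome 15, and Mapk14 (p38 alpha) and Mapk13 (p38 delta) lie 20.9 kb apart on chromosome 17. This grouping by branch was made after the values were seen. Of the 4 p38 enzyme genes, only Mapk13 had a paired island over its start, from 28905200 to 28911199, which covered 52.6% of the gene. The Mapk14 island, from 28824400 to 28826999, ended 2513 bp upstream of its gene. The island paired with Mapk12, from 88952200 to 88959599, began 1414 bp past its gene end.

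None of the 3 islands paired with Mapk11 touched that gene, and 2 of them lay on Mapk12. The island from 88970000 to 88972199 began 714 bp past the end of Mapk11 and spanned the start of Mapk12, and that from 88967000 to 88969399 lay inside Mapk12. The other, from 88987400 to 88991799, ended 7364 bp upstream of Mapk11. Counted by position and not by pairing, islands covered 34.9% of Mapk12 and none of Mapk11. Counted in this way, 14 of the 18 genes with a position in the SICER list had an island on the gene body. For the other 24 genes this could not be counted, since the list does not give their positions. The share of all genes counted by position is not given here, so the count has nothing to be read against.

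Among the other MAP kinases, Mapk7 lay wholly inside an island. It encodes ERK5, and its island of 9200 bp on chromosome 11, from 61299000 to 61308199, held the gene from 494 bp before its start to 3313 bp past its end. Mapk8, which encodes JNK1, had an island on chromosome 14 from 34179400 to 34185199, beginning 5884 bp past the gene end. Mapk3 (ERK1), Mapk9 and Mapk10 (JNK2 and JNK3) and the atypical kinase genes Mapk4, Mapk6 and Mapk15 had neither kind of region.

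By placement, most of the family's islands touched their gene. Of the 38, 24 overlapped the body of their gene (63.2%, beside 72% of all islands) and 6 spanned its start (15.8%, beside 15.4%). A further 6 lay wholly upstream (15.8%, beside 12.3%) and 8 wholly downstream (21.1%, beside 15.7%). The family's islands had a median width of 5600 bp and quartiles of 3400 and 7700 bp, beside 4800, 3000 and 7600 bp for all islands. Paired islands covered a median of 8.47% of the gene in the 18 members with islands, beside 16.5% in all 3771 genes with islands. The median summed island width per gene was 7200 bp, beside 7800 bp. The widely covered members described above are thus not typical of the family. Starts were spanned in Map2k2, Map2k3, Map3k11, Map3k14, Mapk7 and Mapk13, 6 of 42 genes (14.3%) beside 5.4% of all protein-coding genes. The same 6 genes had an island within 2 kb of the start, beside 6.89% of all. With islands paired with neighbours, the starts of Map2k7 and Mapk12 were covered too, 8 in all. The 5.4% counts paired islands only, so it is no background for these 8.

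Gene length and chromosome are given beside the island calls. The median RefSeq gene length was 29.1 kb for the 18 genes with an island and 69.8 kb for the other 24, and 17.3 kb for all protein-coding genes. With all genes split into 4 classes of equal number by length, in the longest class, from 44.9 kb up, 8 of 22 family members had an island (36.4%, beside 20.4% of 5408 genes). In the class below it the count was 4 of 10 (40.0%, beside 21.1%), in the next 5 of 8 (62.5%, beside 18.5%) and in the shortest 1 of 2 (beside 9.74%). On chromosome 11, where 31.5% of genes had an island, 5 of 7 members did. Over the 10 chromosomes whose share exceeded that of the genome, 15 of 26 members had an island (57.7%, beside 25% of genes). On the other 8 chromosomes with members the count was 3 of 16 (18.8%, beside 9.28%). The part of length and chromosome in the family's share was not tested.

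Most listed gene positions differ from GRCm38, and the MACS calls are set beside this. Of 19 members whose position the lists give or imply, Map2k7, Map3k8 and Map3k11 lay within 1 kb of GRCm38. The position of Map3k8 is implied only by the MACS region that named it, so its call was fixed by its inclusion. Of the others, with positions from the SICER list, Map2k7 was named by MACS regions and Map3k11 was not. The remaining 16 of the 19 members lay 1.49 to 2520 kb from GRCm38, and 1 of them, Map3k3, was named. Over all protein-coding genes paired with islands, MACS regions named 50.2% of the 285 with positions within 1 kb of GRCm38 and 11.3% of the 3486 others. MACS calls were also uneven over chromosomes, from 0.311% of genes on chromosome X to 35.3% on chromosome 16. The parts of position and chromosome in the calls were not tested.

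The wider pathway, 110 genes that act around the cascade, was paired with islands at 38 genes (34.5%, interval 25.7 to 44.2) and named by MACS regions at 9 (8.18%, 3.81 to 15.0), while the shares of all protein-coding genes were 17.4% and 6.21%. The MACS share again lies near that of all genes, and the counts by role are to be read against the same 17.4%. These genes were listed by role and not by their values, but with earlier results of these data known. Islands were paired with 5 of 26 receptors and Ras inputs, near that share, most by summed width at Fgfr1 (17.0 kb), a growth factor receptor gene, and Erbb3 (7.0 kb), a partner of ERBB2. Ras and Raf inhibitors had 4 of 10, with Spred2 (6.6 kb) and Pebp1 (4.6 kb) widest. Upper-tier kinases with other names had 2 of 10, also near it, Mink1 (7.0 kb) and Taok3 (2.2 kb), and Braf and Araf had none. Scaffolds and adaptors had 7 of 20, led by Ksr1 (6 islands, 46.0 kb), a scaffold of the ERK cascade, and Mapk8ip1 (20.4 kb), a scaffold of JNK. Kinases activated by MAP kinases had 3 of 11, with Mapkapk2 (34.0 kb), a p38 target, and Rps6ka2 (12.2 kb).

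MAP kinase phosphatases, which switch MAP kinases off again, had islands at 5 of 10 genes, and in all 5 an island spanned the gene start, beside 17.4% and 5.4% of all protein-coding genes. They were Dusp1, Dusp4, Dusp5, Dusp6 and Dusp7, with most summed width at Dusp4 (16.2 kb) and Dusp7 (15.6 kb). Nuclear targets had islands at 12 of 23 genes, beside the same 17.4%, with Ets2 (16.6 kb) and Jund (12.8 kb) widest. Islands spanned the starts of 5 of the 23, Fos, Jun, Jund, Mef2d and Myc, beside 5.4% of all genes. By MACS regions, the Ras inhibitors Nf1 (2 regions), Spred2 and Spry4, the kinases Araf and Mknk2, the phosphatase Dusp5 and the nuclear targets Fosl1 (2 regions), Junb and Srf were named. Those of Fosl1, an AP-1 subunit, lay on chromosome 19 from 5447890 to 5448410 and from 5448600 to 5448830, in an island, although no island was paired with Fosl1. The Dusp5 region, from 53604400 to 53604600 on the same chromosome, and the Junb region at 87504400 on chromosome 8, 1752 bp upstream of the gene, also lay in islands. The other 6 genes had theirs outside islands.

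**Figure D4:**
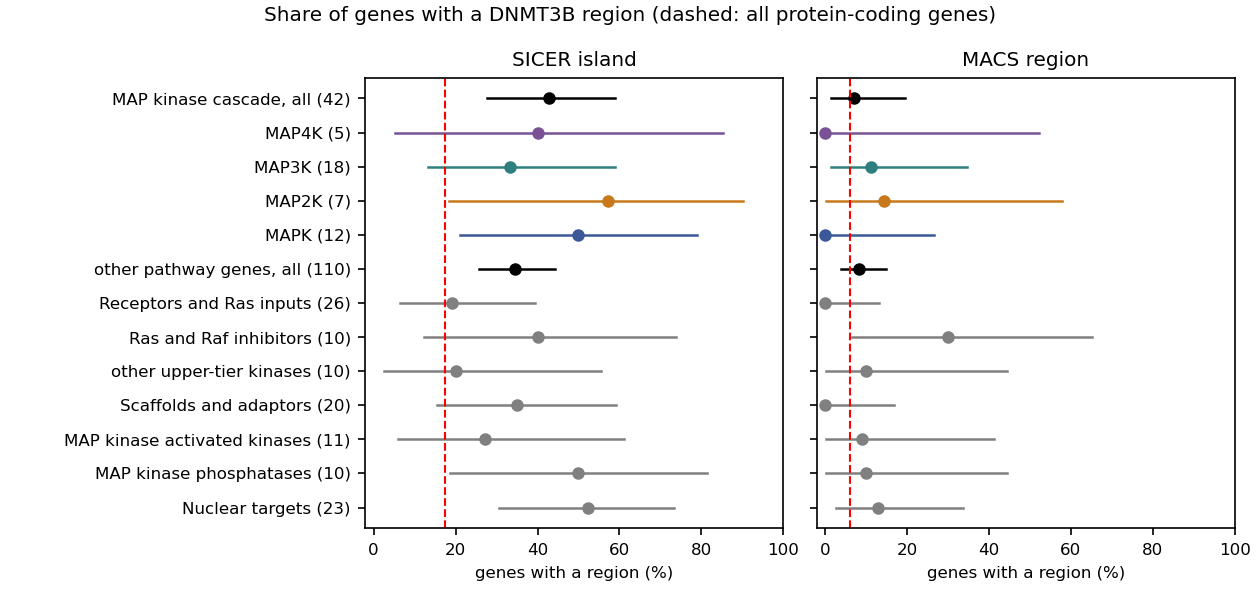
Percentage of genes with a SICER island (left) and with a MACS region (right) for the 42 MAP kinase genes, their tiers and the 110 other pathway genes by role, with the number of genes in brackets. Points are shares, lines exact 95% intervals for counting error, and dashed lines the share of all protein-coding genes (17.4% and 6.21%). The share of the family as a whole lies above the dashed line for islands and near the line for MACS regions. The intervals treat genes as independent, which neighbouring genes are not, and are no test against the line.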

How the data were processed

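Values are base positions and distances in 2 lists that the authors deposited for the series as a whole, with no value per library. The submitters' processing notes name Bowtie2 (2.10), MACS (1.4), SICER and the build mm10. The MACS list is named for MACS2, and listed gene positions mostly differ from GRCm38, so the build stays unknown and positions are given as deposited. The MACS list holds 4304 lines and 1704 distinct regions, with an end given as a question mark set to the start, and positions rounded to 6 significant digits. SICER islands stand in steps of 200 bp, each paired with 1 gene. Pooling of libraries and the selection of islands are not given in the sources used here.

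A gene counted as named when the MACS list gave it as nearest or overlapping feature, and as paired when the SICER list did. Genes were matched by symbol, transcript or unique synonym to RefSeq (GRCm38.p6), and 269 protein-coding genes on chromosomes that neither list covers were left out of the 21900. Overlap required 1 shared bp. Every member was named, except that 1 gene that the rule takes and 1 other pathway gene are not reported here and enter no count of these groups. Of the other pathway genes, those with a MACS region and, per role, the 2 with most summed island width were named. Members and lists were chosen with earlier results of these data known. No test was run, since nothing is replicated. Python 3.11.15, pandas 2.3.3 and scipy 1.17.1 were used, and the functions were checked on simulated intervals.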

Additional observations from a re-analysis of the deposited data

How the results depend on the processing

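Of 23 alternatives, 20 stayed within 1.5 times the reported value. The values compared are counts and a median width and not shares beside all genes, so this does not show that the shares held. Some alternatives, such as symbols exactly as written, could hardly change the counts. With islands required within 2 kb of the gene start, 6 MAP kinase genes had one in place of 18, beside 6.89% of all protein-coding genes. With the island midpoint required in the gene or up to 5 kb upstream, 13 did, and Map3k21, Map4k1, Mapk8, Mapk11 and Mapk12 dropped out. Counting every deposited line in place of distinct regions gave 10 in islands in place of 3. Among the 16 members whose position differs from GRCm38 by over 1 kb, MACS regions named 1, in place of 3 of all 42. These counts are over different numbers of genes, so they show no change in share under that setting. That setting, islands counted by position, gene starts under any island and neighbouring pairs counted once (16 genes with an island) were settings added after seeing the values. For neighbouring pairs counted once, no matching share of all genes is given here. No paired analysis was possible because no deposited value belongs to a single library, and none could be left out for this reason. Depth is unknown, so an absent region is not an absence of DNMT3B.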
